A study of Mus musculus with 58 samples.

Results

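The dystrophin-glycoprotein complex of muscle is described here through 8 of its genes: Dmd (dystrophin), Utrn (utrophin), Dag1 (dystroglycan), Sgca, Sgcb and Sgcd (alpha-, beta- and delta-sarcoglycan), Dtna (alpha-dystrobrevin) and Sspn (sarcospan). They were found by their symbol in the annotation of the array platform. The set was chosen with earlier results of these data known, and each of the 8 had 1 probe set among the 23185 named genes. Expression had been measured by microarray in the tibialis anterior, a leg muscle, and in the diaphragm, the main breathing muscle, of adult female NSG mice, an immunodeficient strain without mature T, B or NK cells. In the PDX groups (patient-derived xenograft), pieces of a tumour resected from a cachectic patient with pancreatic ductal adenocarcinoma were attached to the pancreas, and in the sham groups the same strain had surgery without a tumour. Mice were killed when the tumour bearers showed severe cachexia, a wasting of muscle and fat, or when tumours exceeded 3 cm. There were 4 cohorts, with tumours of 4 patients, and each muscle gave 12 sham and 17 PDX arrays: 3 sham arrays in every cohort, and 3, 5, 5 and 4 PDX arrays in cohorts 1, 2, 3 and 4. The labels do not state that each array came from a separate mouse, so the tests measure the spread between these samples.

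The complex spans the membrane of the muscle fibre and ties the actin cytoskeleton to the extracellular matrix. Dystrophin binds actin inside the fibre and the beta subunit of dystroglycan in the membrane, the alpha subunit of dystroglycan binds laminin outside, and the sarcoglycans and sarcospan brace this link, while dystrobrevin and the syntrophins carry signalling proteins such as neuronal nitric oxide synthase. Loss of dystrophin or of a sarcoglycan causes muscular dystrophy, and a reduced complex at the membrane has been described in cancer cachexia. The arrays measured RNA, so the proteins of the complex at the membrane were not measured here.

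The RefSeq sequences before the annotated starts are shown for Dmd, Sgcd and Sspn, the members that differed in the tibialis anterior of tumour-bearing mice. Each window is the 250 bases before a start on build GRCm38.p6, printed 5′ to 3′ on the gene's strand. Capitals mark E-boxes, written CANNTG, a motif class that includes the sites of MyoD-family factors. Which factors bind the marked sites was not tested. The first Dmd window is chrX:82948620-82948869, plus strand, and the second, before another start, is chrX:85048045-85048294, plus strand.
Dmd first start: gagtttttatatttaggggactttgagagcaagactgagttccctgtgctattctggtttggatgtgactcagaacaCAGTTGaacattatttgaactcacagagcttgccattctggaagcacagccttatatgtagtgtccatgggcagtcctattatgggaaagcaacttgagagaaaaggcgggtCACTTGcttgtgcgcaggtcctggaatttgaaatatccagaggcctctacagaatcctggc
Dmd second start: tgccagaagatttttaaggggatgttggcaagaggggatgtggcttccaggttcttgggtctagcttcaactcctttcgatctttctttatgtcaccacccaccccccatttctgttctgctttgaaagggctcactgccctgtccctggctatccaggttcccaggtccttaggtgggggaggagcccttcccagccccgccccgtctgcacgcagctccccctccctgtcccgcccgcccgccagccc
The Sgcd window is chr11:47379326-47379575, minus strand.
Sgcd: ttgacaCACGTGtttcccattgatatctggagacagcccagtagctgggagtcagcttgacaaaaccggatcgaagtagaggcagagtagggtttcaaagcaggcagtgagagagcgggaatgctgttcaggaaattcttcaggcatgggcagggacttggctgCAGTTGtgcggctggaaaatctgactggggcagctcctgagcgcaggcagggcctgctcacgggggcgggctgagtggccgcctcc
The Sspn windows are chr6:145931623-145931872 and chr6:145933872-145934121, both on the plus strand. The first of them ends in a pyrimidine run and cag, as introns do, so it may not be a promoter.
Sspn first start: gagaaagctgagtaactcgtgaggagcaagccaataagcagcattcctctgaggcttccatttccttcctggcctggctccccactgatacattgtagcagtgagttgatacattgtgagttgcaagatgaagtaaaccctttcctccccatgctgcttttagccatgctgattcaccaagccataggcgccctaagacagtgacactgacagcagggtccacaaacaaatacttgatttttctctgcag
Sspn second start: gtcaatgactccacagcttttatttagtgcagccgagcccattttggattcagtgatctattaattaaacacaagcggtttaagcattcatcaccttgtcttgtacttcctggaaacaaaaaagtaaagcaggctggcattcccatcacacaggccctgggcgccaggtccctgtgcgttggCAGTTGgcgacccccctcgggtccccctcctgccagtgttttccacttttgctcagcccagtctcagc
The first Dmd window held 2 E-boxes and the Sgcd window 2, while the second Sspn window held 1 and the other 2 windows shown held none of these letters. Over the 7 members for which a window was read, 7 of 10 windows held an E-box, against 66.2% of all 32851 windows of this length. The 2 windows of Dag1 overlap and share the same E-box, so that site is counted in both. The Utrn window, also counted as holding an E-box, ends in a pyrimidine-rich stretch and tag, as introns do. It may therefore not be a promoter either. A MEF2 motif was found in 1 of the 10 windows, the first of Dmd, against 2.92% of all windows. The glucocorticoid receptor half-site AGAACA, searched like the others on both strands, was found in 2 of the 10, both of Dmd, against 16.1% of all windows. Which transcripts the Dmd probe set covers is not given in the sources used here. Transcripts from the different starts of Dmd therefore cannot be told apart in these values.

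All values below are deposited log2 expression values, and differences are log2 differences, with a gene said to have passed when limma's Benjamini-Hochberg adjusted p over all 23185 genes was under 0.05. The tumour effect is the mean over the 4 cohorts of PDX minus sham, with its standard error (SE) from the 29 arrays of a muscle. Markers of skeletal muscle fibres were high in both muscles, with list means of 10.98 to 11.23 in sham tibialis anterior and 10.77 to 11.15 in sham diaphragm. Arrays were taken to carry liver markers where the mean of 11 liver and pancreatic acinar markers stood above 4.25, set 0.5 above its median over all arrays. These were 15 of the 29 diaphragm arrays and 4 of the 29 tibialis anterior arrays. The diaphragm arrays were 6 of 12 sham and 9 of 17 PDX, with all 3 PDX arrays of cohort 1 among them. The acinar genes Cela1, Cpa1 and Prss2 stayed below the median of all values (3.78) on every diaphragm array, at most 3.61, 2.81 and 2.23. The raised list means thus came from its liver genes. Diaphragm values without the arrays that carried liver markers are given beside the results. In sham this left only array 1 of cohort 1 and array 3 of cohort 3, with cohorts still weighted equally. The tumour effect then rested on cohorts 2 to 4, and cohort 1 also left the tibialis anterior side of the difference between the muscles. Calls lost or gained in these fits thus cannot be told apart from the loss of arrays. In whole muscle, fewer cells of a type and less RNA per cell cannot be told apart.

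**Figure D1:**
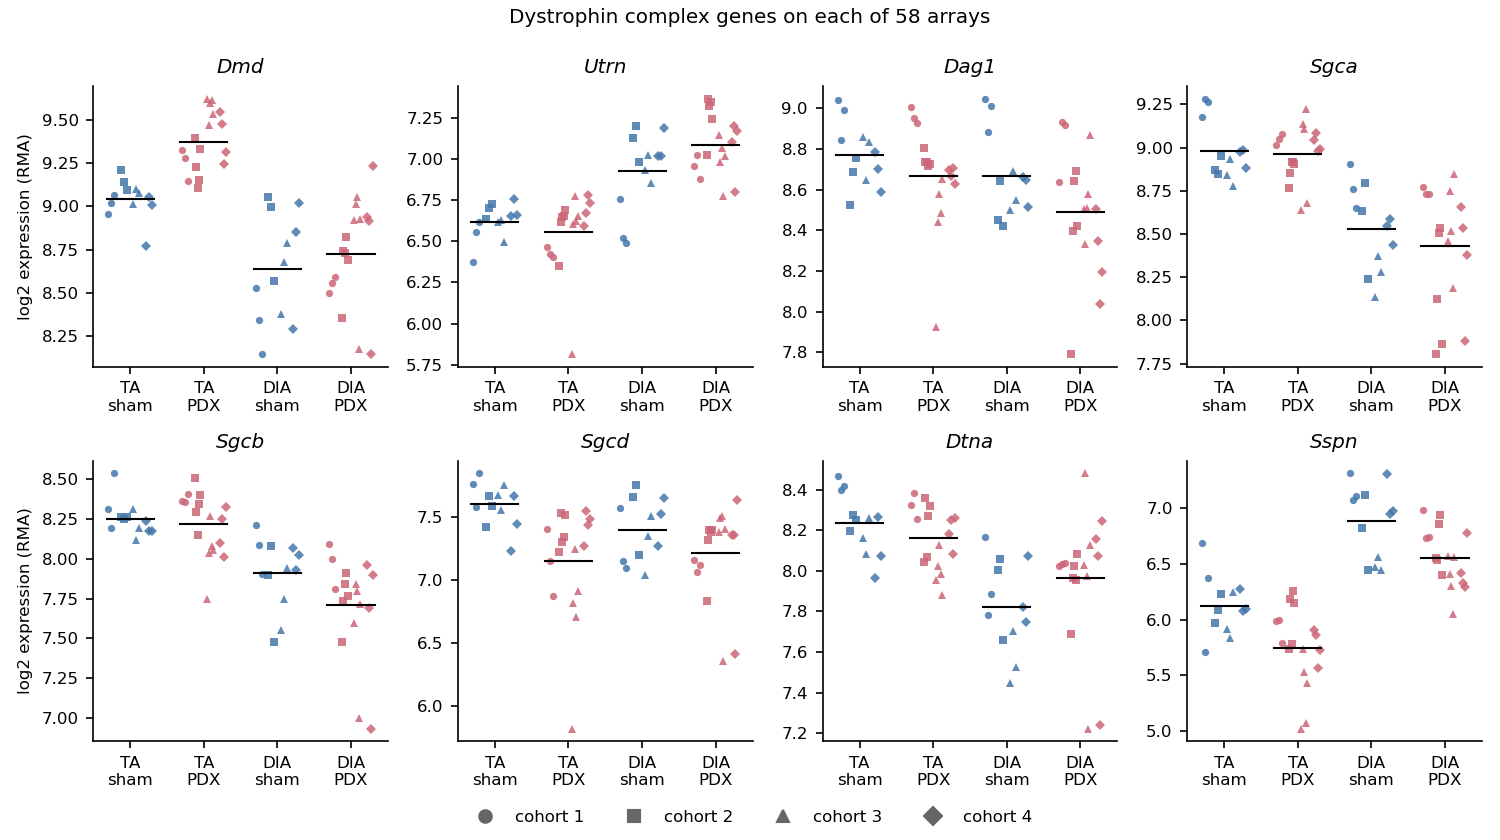
Log2 expression (RMA) of the 8 genes on each of the 58 arrays, by muscle (TA, tibialis anterior; DIA, diaphragm) and by sham or PDX, with the marker shape giving the cohort and the line the mean of the arrays. Dmd of the tibialis anterior spanned 8.77 to 9.21 on sham and 9.10 to 9.62 on PDX arrays, and Sspn was higher in sham diaphragm than in sham tibialis anterior.

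In the tibialis anterior of tumour-bearing mice Dmd rose 1.25-fold, Sgcd fell to 0.74-fold and Sspn fell to 0.78-fold of the sham level, while the other 5 genes did not pass. Thus 1 of 8 was higher, where 6.32% of all genes were, and 2 of 8 were lower, where 6.53% of all genes were. The median difference over the 8 genes was -0.06, and over all genes it was -0.01.

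Dmd encodes the long rod-shaped protein that links actin to dystroglycan. In cohort 1 its sham values were 8.96, 9.02 and 9.07 and its PDX values 9.15, 9.28 and 9.33. In cohort 2 the sham values were 9.09, 9.14 and 9.21 and the PDX values 9.10, 9.15, 9.23, 9.33 and 9.40. Every PDX array thus lay above every sham array in cohort 1, but the groups overlapped in cohort 2. In cohort 3 the sham values were 9.01, 9.08 and 9.10 and the PDX values 9.47, 9.53, 9.60, 9.61 and 9.62. In cohort 4 the sham values were 8.77, 9.01 and 9.05 and the PDX values 9.25, 9.32, 9.48 and 9.55. Both of these cohorts were separated without overlap. The cohort differences were 0.24, 0.09, 0.50 and 0.45 in cohorts 1 to 4, and their mean was 0.32 (SE 0.0499, 95% interval 0.22 to 0.42, limma adjusted p = 6.02e-05). With only the 4 cohort differences as replicates, Dmd did not pass (limma adjusted p = 0.0721).

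Sgcd encodes delta-sarcoglycan, a single-pass membrane protein of the sarcoglycan subcomplex that is also made in smooth muscle. In cohort 1 its sham values were 7.58, 7.76 and 7.84 and its PDX values 6.87, 7.15 and 7.41. In cohort 3 the sham values were 7.56, 7.68 and 7.76 and the PDX values 5.82, 6.71, 6.82, 6.92 and 7.24. In these cohorts every PDX array lay below every sham array. In cohort 2 the sham values were 7.42, 7.59 and 7.67 against PDX values of 7.22, 7.30, 7.34, 7.52 and 7.53, and in cohort 4 they were 7.23, 7.45 and 7.66 against 7.27, 7.44, 7.48 and 7.55. The groups overlapped in both. The cohort differences were -0.59, -0.17, -0.96 and -0.01, with a mean of -0.43 (SE 0.0992, 95% interval -0.64 to -0.23, limma adjusted p = 0.00332). Sgcd did not pass without cohort 1 (-0.38, limma adjusted p = 0.051) or with the cohorts as replicates (limma adjusted p = 0.12).

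Sspn encodes sarcospan, a small protein with 4 membrane passes that binds the sarcoglycans. In cohort 3 its sham values were 5.84, 5.91 and 6.25 and its PDX values 5.02, 5.07, 5.43, 5.53 and 5.74. In cohort 4 the sham values were 6.08, 6.09 and 6.28 and the PDX values 5.57, 5.73, 5.86 and 5.91. In both of these cohorts PDX lay wholly below sham. In cohort 1 the sham values were 5.71, 6.37 and 6.69 and the PDX values 5.79, 5.99 and 5.996, and in cohort 2 the sham values were 5.97, 6.09 and 6.23 and the PDX values 5.74, 5.78, 6.15, 6.19 and 6.26. Here the groups overlapped, and the sham arrays of cohort 1 were the most spread. The cohort differences were -0.33, -0.07, -0.64 and -0.38, with a mean of -0.36 (SE 0.0932, 95% interval -0.55 to -0.17, limma adjusted p = 0.00945). Sspn did not pass without cohort 3 (-0.26, limma adjusted p = 0.115), without cohort 4 (-0.35, limma adjusted p = 0.0629) or with the cohorts as replicates (limma adjusted p = 0.068).

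Utrn, the autosomal relative of dystrophin that is found at the neuromuscular junction and in non-muscle cells, ranged from 6.38 to 6.76 in sham (median 6.63) and from 5.82 to 6.78 in PDX (median 6.62). Its difference was -0.07 (95% interval -0.22 to 0.08). Dag1, whose single product is cleaved into both dystroglycan subunits, had a difference of -0.07 (95% interval -0.20 to 0.05), and its cohort 3 value was -0.36 where cohorts 1, 2 and 4 gave 0.00, 0.09 and -0.02. For Sgca, the sarcoglycan restricted to striated muscle, the difference was -0.01 (95% interval -0.12 to 0.11), and for Sgcb, which forms the core of the subcomplex with Sgcd, it was -0.02 (95% interval -0.14 to 0.10). For Dtna, which binds dystrophin and the syntrophins, it was -0.05 (95% interval -0.16 to 0.05). The limma adjusted p of these 5 genes lay between 0.542 and 0.967. The intervals of Dag1, Sgca, Sgcb and Dtna reached no further than 0.20 below 0 on the log2 scale, and that of Sgca reached 0.11 above it.

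Fibroblast markers fell in the same comparison for 8 of 8 genes, with list means of 6.99 to 7.71 in sham and 4.91 to 6.95 in PDX, and tendon markers fell for 6 of 7. Of the smooth muscle and pericyte markers, 3 of 8 fell and 0 rose, with list means of 6.08 to 6.49 in sham and 5.83 to 6.49 in PDX. Of the myofibre markers, 4 of 10 fell and 1 rose, with list means of 10.7 to 11.23 in PDX. The part of these cell types in the falls of Sgcd and Sspn and in the rise of Dmd was not tested. Without the 4 tibialis anterior arrays that carried liver markers, Dmd was 0.30 (limma adjusted p = 0.000972), Sgcd -0.41 (limma adjusted p = 0.0261) and Sspn -0.36 (limma adjusted p = 0.0298).

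**Figure D2:**
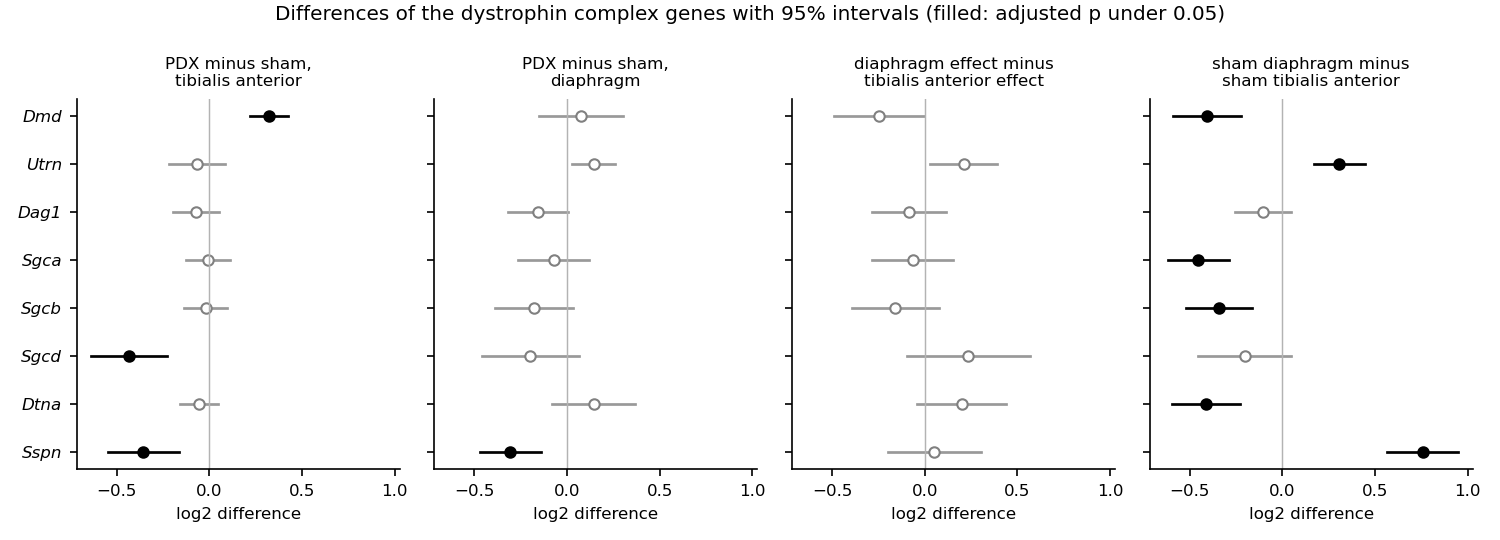
Log2 differences of the 8 genes (points) with 95% intervals (lines) in 4 comparisons, one per panel, with filled points where the adjusted p was under 0.05. Dmd, Sgcd and Sspn passed in the tibialis anterior, Sspn in the diaphragm, none in the contrast of both effects and 6 of 8 between the sham muscles.

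In the diaphragm of tumour-bearing mice Sspn was the one member that passed, and it fell to 0.809-fold of sham. That is 1 of 8 lower, where 6.58% of all genes were, and 0 of 8 higher, where 5.89% were. At an unadjusted limma p under 0.05 there were 2 members, Sspn and Utrn, and 5453 of the 23185 genes. The median difference was -0.11 over the members and 0.00 over all genes.

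Sspn values of the sham diaphragm in cohort 1 were 7.07, 7.11 and 7.31, and the PDX values were 6.73, 6.75 and 6.98. In cohort 4 the sham values were 6.95, 6.97 and 7.31 and the PDX values 6.30, 6.33, 6.42 and 6.78. PDX lay below sham on every array of these cohorts. In cohort 2 sham values of 6.45, 6.83 and 7.12 overlapped PDX values of 6.40, 6.54, 6.55, 6.86 and 6.94, and in cohort 3 sham values of 6.45, 6.48 and 6.56 overlapped PDX values of 6.05, 6.30, 6.41, 6.56 and 6.57. The cohort differences were -0.35, -0.14, -0.11 and -0.62, and their mean was -0.31 (SE 0.0802, 95% interval -0.47 to -0.14, limma adjusted p = 0.0116). Without the 15 arrays with liver markers, which leaves cohorts 2 to 4, the difference was -0.32 (SE 0.124) and did not pass (limma adjusted p = 0.182). It also missed the threshold without cohort 1 (-0.29, limma adjusted p = 0.0748), without cohort 4 (-0.20, limma adjusted p = 0.204) and with the cohorts as replicates (limma adjusted p = 0.154).

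Utrn in the diaphragm ranged from 6.49 to 7.20 in sham (median 7.0) and from 6.78 to 7.37 in PDX (median 7.07). The groups overlapped as a whole, but in cohort 1 the sham values of 6.49, 6.52 and 6.76 all lay below the PDX values of 6.88, 6.96 and 7.02. The cohort differences were 0.36, 0.16, 0.06 and -0.01, and the mean of 0.14 (95% interval 0.03 to 0.26) did not pass over all genes (limma adjusted p = 0.0967). It passed when arrays were weighted by their quality (0.16, limma adjusted p = 0.0159) and when PDX array 3 of cohort 4 was left out (0.17, limma adjusted p = 0.0358). Without the liver-marker arrays it was 0.17 (limma adjusted p = 0.302).

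Dmd in the diaphragm ranged from 8.15 to 9.05 in sham and from 8.15 to 9.24 in PDX, with cohort differences of 0.21, -0.20, 0.21 and 0.09. The mean of 0.07 (95% interval -0.15 to 0.30, limma adjusted p = 0.778) did not pass. Dmd levels were lower on arrays with liver markers: 8.52 ± 0.31 (SD, n = 6) against 8.75 ± 0.29 (SD, n = 6) in sham, and 8.59 ± 0.36 (SD, n = 9) against 8.88 ± 0.12 (SD, n = 8) in PDX. Sgcd showed the same order, with 7.25 ± 0.22 (SD, n = 6) against 7.55 ± 0.17 (SD, n = 6) for sham and 7.04 ± 0.44 (SD, n = 9) against 7.40 ± 0.05 (SD, n = 8) in PDX. The spread of Sgcd among PDX diaphragms thus lay mostly on the arrays with liver markers. This split pools the cohorts. In cohort 1, 2 of 3 sham and 3 of 3 PDX arrays carried liver markers. That cohort also had the lowest mean Dmd in the diaphragm (8.34 in sham, 8.55 in PDX), so the pooled values mix cohort with liver markers. Every diaphragm group other than cohort 1 PDX held both kinds of array. Among those groups, mean Dmd was lower on arrays with liver markers except in cohort 4 sham (9.02 against 8.29 and 8.85). This order within groups was not tested. The highest PDX value of Dmd, 9.24, lay on an array with liver markers.

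Among the remaining members the diaphragm differences were -0.20 for Sgcd (95% interval -0.46 to 0.06), -0.18 for Sgcb (-0.39 to 0.03) and -0.16 for Dag1 (-0.32 to 0.01). Sgca gave -0.07 (95% interval -0.26 to 0.12), with cohort values from -0.39 in cohort 2 to 0.29 in cohort 3. For Dtna the sham range was 7.45 to 8.17 and the PDX range 7.22 to 8.48, and the difference was 0.14 (95% interval -0.08 to 0.37, limma adjusted p = 0.489). Without the arrays with liver markers Sgcd was -0.14, Sgcb -0.19, Dag1 -0.04, Sgca -0.02 and Dmd 0.09, none of which passed. Dtna was then 0.28 (SE 0.0819, limma adjusted p = 0.0841). Macrophage markers rose in the PDX diaphragm for 6 of 7 genes, with list means of 5.72 to 6.60 in sham and 6.24 to 7.94 in PDX, and 3 of 8 fibroblast markers rose. Myofibre markers fell there for 2 of 10 genes and rose for 0. The part of these cells in the member values was not tested.

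The design also asks whether the tumour effect differs between the muscles. This difference (diaphragm effect minus tibialis anterior effect) passed for 0 of 8 members, with 3.66% of all genes higher and 2.67% lower. At an unadjusted limma p under 0.05 there were 2 members, Dmd and Utrn, and 4289 genes. Dmd gave -0.25 (95% interval -0.49 to -0.0036, limma adjusted p = 0.259), so its rise in the leg muscle alone does not show that the muscles differ. Utrn gave 0.21 (95% interval 0.03 to 0.39, limma adjusted p = 0.178). For Sspn, lower in both muscles, the difference was 0.05 (95% interval -0.20 to 0.30), and for Sgcd it was 0.24 (95% interval -0.10 to 0.57). Dtna gave 0.20 (limma adjusted p = 0.391), and it passed when the diaphragm arrays with liver markers were left out (0.32, limma adjusted p = 0.0411).

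**Figure D3:**
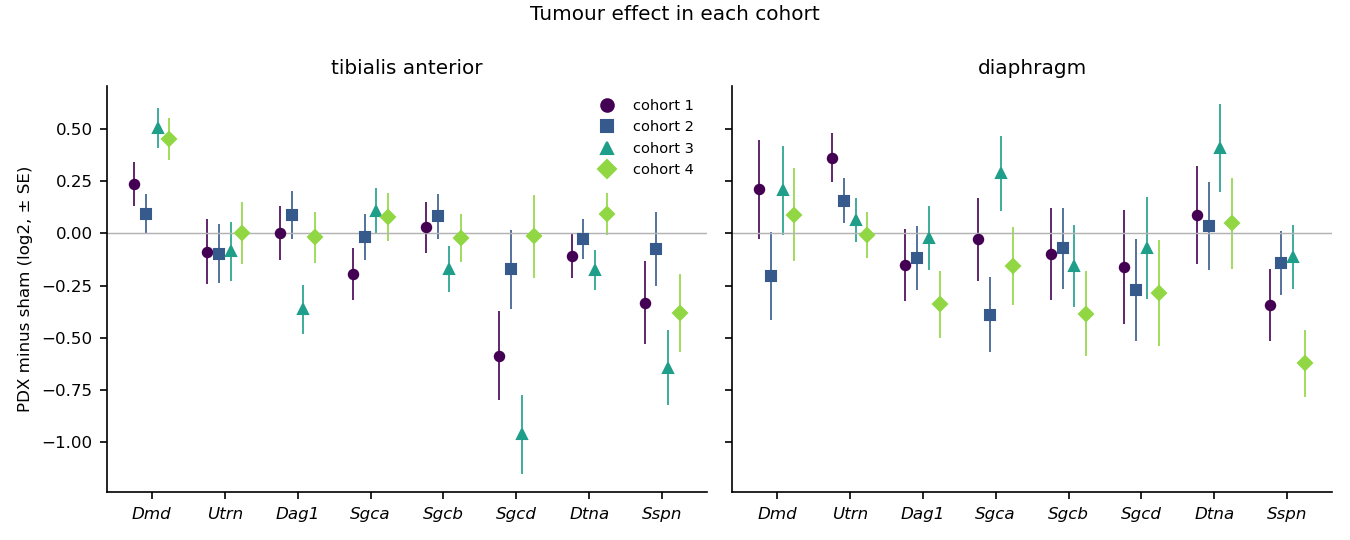
Tumour effect (PDX minus sham, log2, points) with its SE (lines) of each gene in each of the 4 cohorts, in the tibialis anterior (left) and the diaphragm (right). Dmd was above 0 in all 4 cohorts of the tibialis anterior, from 0.09 to 0.50, and Sspn below 0 in all 4 cohorts of both muscles.

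Whether the 4 cohorts, which carried tumours of 4 patients, differed in effect was asked with a moderated F test. It called 0 of 8 members in either muscle, and 0.0129% of all genes in the tibialis anterior and 0.00431% in the diaphragm. Unadjusted limma p-values under 0.05 were found for 2 members in the tibialis anterior, Sgcd (0.00808) and Dmd (0.0208), and for 0 in the diaphragm, beside 1700 and 1726 of the 23185 genes. The sign of the effect was the same in all 4 cohorts for Dmd, Sgcd and Sspn in the tibialis anterior and for Dag1, Sgcb, Sgcd, Dtna and Sspn in the diaphragm. Of these, only Sspn passed in the diaphragm. How many of all genes kept one sign was not counted, so these members have no reference and do not measure agreement between cohorts. In the tibialis anterior, cohort 3 had the greatest change of Dmd, Sgcd and Sspn, at 0.50, -0.96 and -0.64, and cohort 2 had the smallest for Dmd and Sspn, at 0.09 and -0.07. Cohort 4 combined a Dmd difference of 0.45 with an Sgcd difference of -0.01.

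The sham muscles give the RNA levels of the 8 genes without a tumour, and here 6 of 8 members passed. Sspn and Utrn were higher in the diaphragm, 2 of 8 where 15.2% of all genes were. Dmd, Sgca, Sgcb and Dtna were lower in the diaphragm, 4 of 8 where 24.5% of all genes were. The median difference was -0.27 over the members and -0.09 over all genes.

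Sspn of the sham tibialis anterior ranged from 5.71 to 6.69 (median 6.09) and of the sham diaphragm from 6.45 to 7.31 (median 6.96), a difference of 0.76 (1.69-fold, 95% interval 0.57 to 0.95, limma adjusted p = 7.63e-09). Utrn had medians of 6.63 and 7.0, with a difference of 0.31 (1.24-fold, limma adjusted p = 0.000357). The ranges of both genes overlapped between the muscles. Dmd had a median of 9.06 in the tibialis anterior and 8.62 in the diaphragm, a difference of -0.41 (0.754-fold, limma adjusted p = 0.000374). Sgca differed most among the members lower in the diaphragm, from 8.78 to 9.28 in the tibialis anterior against 8.14 to 8.90, a difference of -0.45 (0.73-fold, limma adjusted p = 1.61e-05). Of these lower members all had overlapping ranges.

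Sgcb gave -0.34 (0.789-fold, limma adjusted p = 0.00181) and Dtna -0.41 (0.752-fold, limma adjusted p = 0.000282) between the sham muscles. Dag1, at -0.10 (95% interval -0.25 to 0.05), and Sgcd, at -0.20 (95% interval -0.45 to 0.05), did not pass. Thus the probe sets of Utrn and Sspn were the ones higher in the breathing muscle, and those of Dmd, Sgca, Sgcb and Dtna were lower. Of the liver and acinar list, 8 of 11 genes were higher in the sham diaphragm, and the acinar genes Cela1, Cpa1 and Prss2 were not among them. Mesothelial markers were higher there for 6 of 6 genes, with list means of 5.54 to 6.84 against 3.39 to 3.79 in the sham tibialis anterior. Without the diaphragm arrays with liver markers, the 6 differences kept their direction. Sspn was then at 0.84, Utrn at 0.33, Dmd at -0.32, Sgca at -0.37, Sgcb at -0.22 and Dtna at -0.36. In that fit the sham diaphragm kept only array 1 of cohort 1 and array 3 of cohort 3. Macrophage markers were higher in the sham diaphragm for 7 of 7 genes and fibroblast markers for 6 of 8, while myofibre markers were lower for 4 of 10 and higher for 2. The part of these cells in the member differences was not tested.

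Over the 4 groups of arrays Sspn was ordered from sham diaphragm (mean 6.88 ± 0.33 SD, n = 12) through PDX diaphragm (6.56 ± 0.26 SD, n = 17) and sham tibialis anterior (6.13 ± 0.26 SD, n = 12) to PDX tibialis anterior (5.75 ± 0.35 SD, n = 17). Dmd was ordered from PDX tibialis anterior (9.38 ± 0.17 SD, n = 17) and sham tibialis anterior (9.04 ± 0.11 SD, n = 12) to PDX diaphragm (8.72 ± 0.31 SD, n = 17) and sham diaphragm (8.64 ± 0.31 SD, n = 12), and the last pair of neighbours did not differ beyond their spread. Sgcd was highest in sham tibialis anterior (7.60 ± 0.17 SD, n = 12), followed by sham diaphragm (7.40 ± 0.24 SD, n = 12), PDX diaphragm (7.21 ± 0.36 SD, n = 17) and PDX tibialis anterior (7.15 ± 0.43 SD, n = 17). Its neighbours in this order lay within their spread of each other.

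The likeness of patterns was described by Pearson's r over the 16 group means, each centred on its muscle. These means are of 3 to 5 arrays, share cohorts and, in the diaphragm, share liver RNA. Among pairs of members, Sgcb and Sspn (r = 0.853) and Dag1 and Sgcb (r = 0.816) were most alike, and Dmd ran most opposite to Sspn (r = -0.755) and Dag1 (r = -0.686). Over all named genes, the patterns most like Dmd were those of Matr3 (r = 0.935), Ccdc136 (r = 0.934) and Vps13d (r = 0.907). For Sgcd they were Gucy1a2 (r = 0.921), Zfp827 (r = 0.912) and Myorg (r = 0.908), and for Sspn they were Colgalt2 (r = 0.954), Itm2a (r = 0.944) and Sdhaf2 (r = 0.939). For Utrn they were Ski (r = 0.954), Btbd7 (r = 0.94) and Tyk2 (r = 0.913).

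Around the 8 genes, 56 of 62 listed genes of the same pathway were measured, in 5 lists that cover other subunits and partners, dystroglycan glycosylation, extracellular ligands, costamere and integrin linkers, and membrane repair. In the tibialis anterior 7 of the 56 rose and 18 fell, 44.6% together against 12.8% of all genes. In the diaphragm 7 rose and 5 fell, 21.4% against 12.5% of all genes. The diaphragm count of 12 was 6 without cohort 2, 3 with the cohorts as replicates and 2 (Sntb2 and Capn3) without the arrays with liver markers. The sham muscles differed for 39 of the 56 (19 higher and 20 lower in the diaphragm), 69.6% against 39.7% of all genes.

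Of all genes, 6.32% rose and 6.53% fell in the tibialis anterior, and 5.89% rose and 6.58% fell in the diaphragm. These shares stand beside the count of each list below. Of 10 other subunits and partners, 1 rose and 1 fell in each muscle, close to those shares, and these were 4 different genes. Sntb1, which encodes a syntrophin that binds dystrophin and dystrobrevin, rose by 0.69 in the tibialis anterior (1.61-fold, SE 0.114, limma adjusted p = 0.00013), from a sham range of 5.77 to 6.98 to a PDX range of 6.29 to 7.69. Cav3, the muscle caveolin that binds dystroglycan, fell by 0.23 there (limma adjusted p = 0.0316), but missed the threshold in 6 of 29 fits that left out an array and in 8 of 12 other alternatives. In the diaphragm the related syntrophin gene Sntb2 rose by 0.52 (1.43-fold, SE 0.0813, limma adjusted p = 0.000128), with PDX above sham on every array of cohorts 1, 2 and 3 and overlapping groups in cohort 4 (-0.09). Its values ranged from 5.48 to 6.39 in sham and from 5.59 to 6.95 in PDX. Without the arrays with liver markers Sntb2 still passed (0.52, limma adjusted p = 0.025), but with the cohorts as replicates it did not (limma adjusted p = 0.139).

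Nos1, the neuronal nitric oxide synthase that the complex holds at the membrane through syntrophin, fell by 0.76 in the diaphragm (0.592-fold, SE 0.183, limma adjusted p = 0.00646). Its range was 5.05 to 7.03 in sham and 3.76 to 6.36 in PDX, and the groups overlapped in every cohort. In the tibialis anterior its difference was -0.03 (limma adjusted p = 0.904), with cohort values of 0.35, -0.28, -0.54 and 0.35. The difference between the muscles passed, at -0.73 (limma adjusted p = 0.0264), but without the diaphragm arrays with liver markers it was -0.43 and did not (limma adjusted p = 0.336). Sham diaphragm held less Nos1 than sham tibialis anterior (-1.23, 0.426-fold, limma adjusted p = 1.91e-08). Without the liver-marker arrays the fall of Nos1 in the diaphragm was 0.59 in size and did not pass (limma adjusted p = 0.159).

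The enzymes that put the laminin-binding sugar on alpha-dystroglycan numbered 13. Of these 1 rose and 2 fell in the tibialis anterior, where 6.32% and 6.53% of all genes did. In the diaphragm 0 rose and 2 fell, where 5.89% and 6.58% of all genes did. B3galnt2, which adds N-acetylgalactosamine to that sugar chain, fell in both, by 0.33 (limma adjusted p = 0.00171) and 0.45 (limma adjusted p = 0.00207). Pomk, the kinase that phosphorylates its core mannose, fell by 0.32 in the tibialis anterior, and Dpm1, a subunit of the enzyme that makes the mannose donor, rose by 0.43. Dolk, which makes the lipid carrier of that donor, fell by 0.24 in the diaphragm. The falls of B3galnt2 (limma adjusted p = 0.142) and Dolk (limma adjusted p = 0.226) in the diaphragm did not pass without the liver-marker arrays.

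Of 10 genes for extracellular ligands, 7 fell and 1 rose in the tibialis anterior, while 0 fell and 1 rose in the diaphragm. Bgn (biglycan, which binds dystroglycan and sarcoglycans) fell by 1.03 in the tibialis anterior (0.491-fold, limma adjusted p = 1.01e-06) and rose by 0.64 in the diaphragm (1.56-fold, limma adjusted p = 0.000437). The rise of Bgn in the diaphragm was 0.38 without cohort 2 and did not pass (limma adjusted p = 0.0968). Hspg2 (perlecan) fell by 0.74 and Lamb1 (a laminin beta chain) by 0.55 in the tibialis anterior. Lama2, the laminin chain of the fibre's own basement membrane, fell there to 0.687-fold (limma adjusted p = 0.000178), and Lama5 was the gene that rose (1.3-fold, limma adjusted p = 5.4e-05). Lama2 and Lama5 were named after their values were seen. The fibroblast markers given above fell with this list in the tibialis anterior, and their part in its fall was not tested. In the diaphragm the median difference of the list was 0.02 and that of the fibroblast markers 0.31. Without the liver-marker arrays Bgn was 0.74 in the diaphragm and did not pass (limma adjusted p = 0.0754).

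Of 14 costamere and integrin linkers, 3 rose and 4 fell in the tibialis anterior, and 2 rose and 1 fell in the diaphragm. Ank2 (ankyrin-B, which helps place dystrophin at the membrane) fell in both muscles, by 0.59 (limma adjusted p = 8.13e-07) and 0.49 (limma adjusted p = 0.00934). Its diaphragm value was -0.45 without cohort 1 (limma adjusted p = 0.0623) and -0.34 without the liver-marker arrays (limma adjusted p = 0.144), and passed in neither. Itga7, the integrin chain that binds laminin in parallel to dystroglycan, rose by 0.42 and Ank3 (ankyrin-G) by 0.37 in the tibialis anterior. Des (desmin) was 0.26 and Tln1 (talin) 0.22 higher in the diaphragm, and each missed the threshold in 17 of 29 fits that left out an array and without the liver-marker arrays (limma adjusted p = 0.118 and 0.132).

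Of 9 membrane repair genes, 4 fell and 1 rose in the tibialis anterior, and 3 rose and 1 fell in the diaphragm. The annexins Anxa5, Anxa2 and Anxa1, which bind torn membrane, fell by 0.75, 0.47 and 0.44 in the tibialis anterior. In the diaphragm Anxa2 rose by 0.51, Anxa1 by 0.41 and Myof (myoferlin) by 0.60. Anxa2 was 0.28 without cohort 2 (limma adjusted p = 0.289) and 0.63 without the liver-marker arrays (limma adjusted p = 0.0884). Without those arrays Myof was 0.61 (limma adjusted p = 0.0801) and Anxa1 0.47 (limma adjusted p = 0.147). Capn3, the muscle calpain, fell in both, by 0.35 (limma adjusted p = 0.000756) and 0.71 (limma adjusted p = 0.000442), and its diaphragm call held without the liver-marker arrays (-0.69, limma adjusted p = 0.0453).

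**Figure D4:**
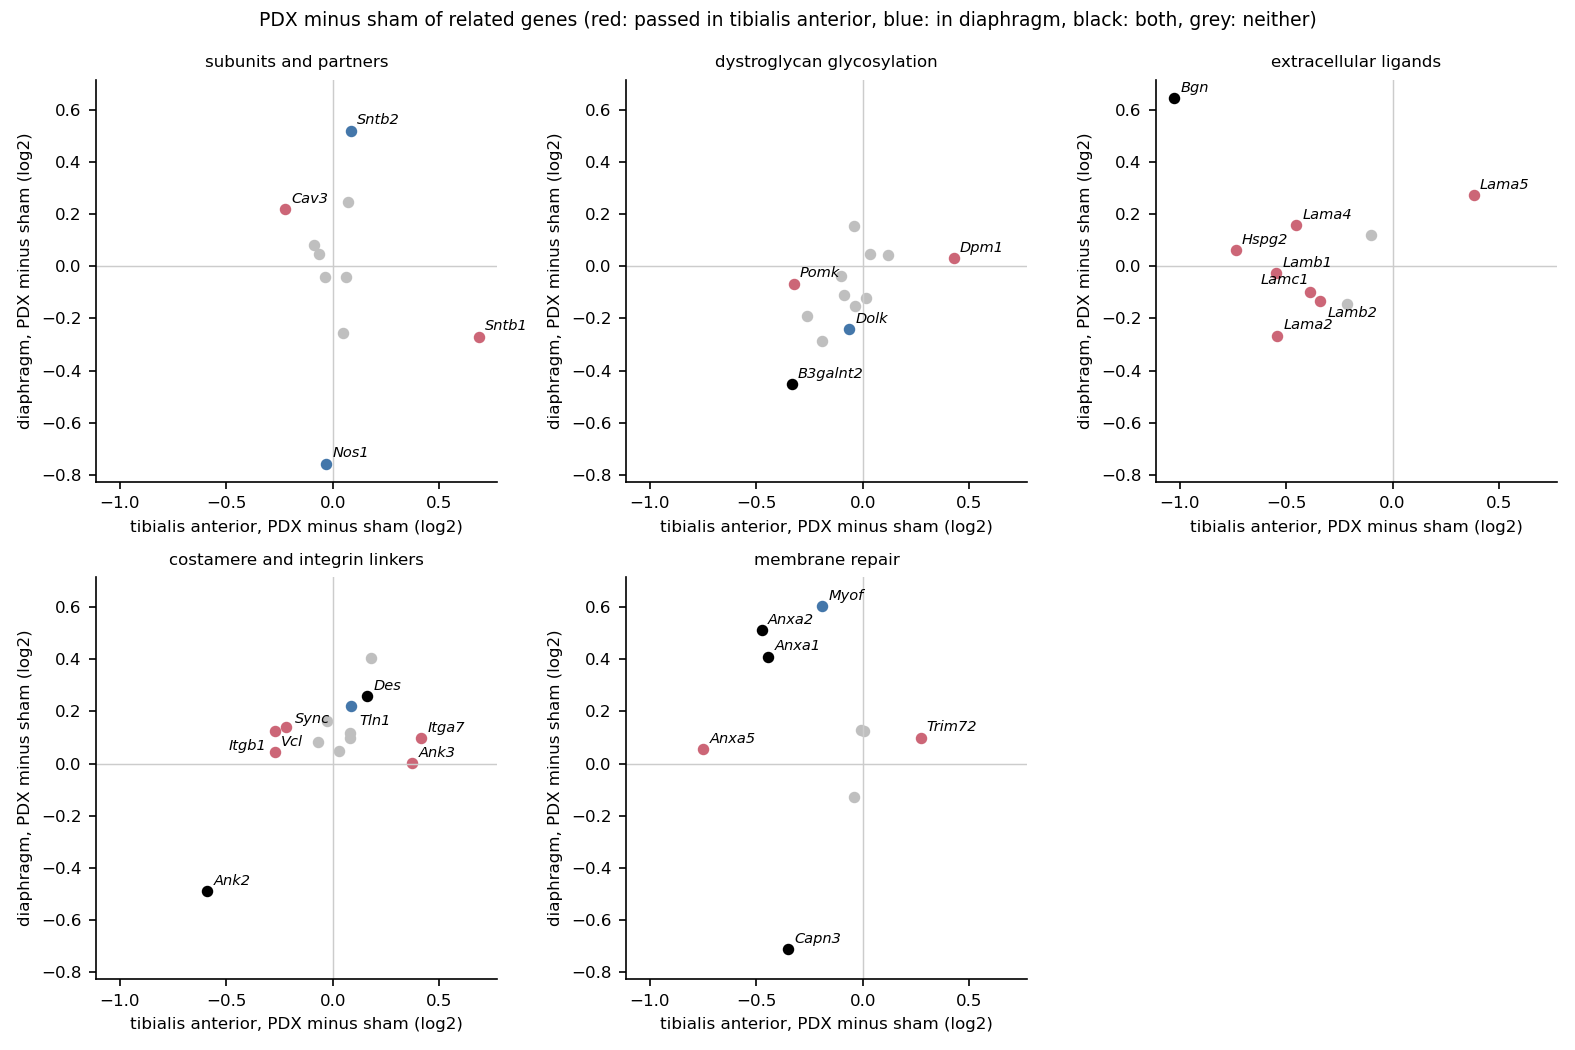
Tumour effect (PDX minus sham, log2) in the tibialis anterior (horizontal) against the diaphragm (vertical) for the genes of the 5 related lists, 1 point a gene, named and coloured where it passed in the tibialis anterior (red), the diaphragm (blue) or both (black). Ank2, B3galnt2 and Capn3 lay below 0 and passed in both muscles, and Bgn lay at -1.03 and 0.64.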

How the data were processed

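Per the labels, RNA of both muscles was labelled with biotin (WT Plus kit) for Affymetrix arrays. The authors deposited a table of log2 expression with 25206 probe sets and 58 arrays. It was made by RMA (affy 1.36.1 with R 2.15.1), as the submitters' processing notes state. The log2 scale was read from the deposited values (array medians 3.702 to 3.862). Not given in the sources used here are the probe set definitions and whether all cohorts went through RMA together. RMA's quantile normalization makes each value relative to the other genes of its array, so RNA of another tissue shifts them. No 2 arrays were identical (highest correlation 0.993), and columns of other samples numbered 0.

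Of the probe sets, 23185 carried a gene symbol and were tested without a filter, and 2021 had none. Tests used limma 3.58.1 (lmFit, eBayes, two-sided) with statmod 1.5.0 in R 4.3.3, on a mean per cohort and treatment for each muscle's 29 arrays, and on 16 group means over 58 arrays for comparisons between muscles. Cohorts had equal weight. P-values were adjusted by Benjamini-Hochberg over 23185 genes. The scripts were tested on simulated data. The number of arrays limits the precision.

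The members and lists were chosen with earlier results of these data known. All 8 members are named; from each related list up to 3 genes per muscle with the largest difference among those that passed; for likeness, the 3 genes with the highest r. Not analysed here were 6 related genes that had no named probe set. Windows before annotated starts came from RefSeq (GRCm38.p6). Alternatives left out each array, each cohort or arrays with liver markers, and changed the filter, centring, prior, weights, cohort weighting and replicates. Marker lists numbered 10; the counts not given above follow. In the diaphragm, smooth muscle and pericyte markers rose for 1 and fell for 1 of 8, and tendon markers rose for 1 of 7. Macrophage markers of the tibialis anterior rose for 1 and fell for 2 of 7. Endothelial markers rose for 2 and fell for 1 of 8 in each muscle, Schwann cell markers fell for 0 of 4 and 3 of 4, satellite cell markers rose for 0 and 1 of 5, and mesothelial markers rose for 1 and 2 of 6 (tibialis anterior, then diaphragm). Liver and acinar markers passed for 0 of 11 in both.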

Additional observations from a re-analysis of the deposited data

Results flagged for a closer look

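Single arrays stood apart from the others of their group in 8 of 48 cases, each case being 1 member in 1 group of 4 or 5 arrays. The measure was the gap to the nearest array relative to the range of the group. Chance marks about 1 in 20 independent cases. The members share their arrays, and several flags below fall on the same array, so the 8 cannot be set against that rate. In the diaphragm, PDX array 1 of cohort 2 was lowest for Dmd (8.36, others 8.69 to 8.82) and Sgcd (6.83, others 7.32 to 7.40). PDX array 4 of cohort 3 was lowest for Dmd (8.18, others 8.92 to 9.05), Sgcb (7.0, others 7.60 to 7.84) and Sgcd (6.36, others 7.38 to 7.51). Both arrays carried liver markers, with list means of 8.32 and 8.78, and their part in these values was not tested. In the tibialis anterior, PDX array 1 of cohort 3 was lowest for Utrn (5.82, others 6.60 to 6.78). PDX array 1 of cohort 2 was lowest for Utrn (6.35, others 6.62 to 6.69) and highest for Dag1 (8.80, others 8.71 to 8.74).

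For 11 of the related genes named, the tumour effect differed between the muscles (diaphragm effect minus tibialis anterior effect, limma adjusted p under 0.05). Among all 56 related genes 14 passed, 25% against 6.33% of all genes. The named genes had been picked for a large effect in 1 of these muscles, so differences between the muscles are more frequent among them by that choice. The difference was 1.67 for Bgn, 0.98 for Anxa2, 0.85 for Anxa1, 0.80 for Anxa5, 0.80 for Hspg2, 0.79 for Myof and 0.52 for Lamb1. It was 0.45 for Cav3, 0.44 for Sntb2, -0.40 for Dpm1 and -0.73 for Nos1. Without the diaphragm arrays with liver markers, 5 of the 11 did not pass: Nos1 (-0.43, limma adjusted p = 0.336), Lamb1 (0.43, limma adjusted p = 0.236), Sntb2 (0.40, limma adjusted p = 0.23), Dpm1 (-0.36, limma adjusted p = 0.0793) and Cav3 (0.43, limma adjusted p = 0.0725). Sntb1, not among the 11, passed in that fit (-0.88, limma adjusted p = 0.039).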

How the results depend on the processing

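Among the members, the 6 differences between the sham muscles kept their direction and call under every alternative run, and the counts of 2 higher and 4 lower did not move. Elsewhere calls depended on the cohorts. In the tibialis anterior the members lower numbered 1 without cohort 1, without cohort 3 or without cohort 4, and with the 4 cohorts as replicates 0 were higher and 0 lower. All genes passing were 1426 without cohort 1 and 1122 with cohorts as replicates (2979 as reported), and related genes passing were 15 (25). In the diaphragm 0 members were lower without cohort 1, without cohort 4, with cohorts as replicates or without liver-marker arrays, and 1 (Utrn) was higher with array weights. There all genes passing were 1501 without cohort 1, 1699 without cohort 2, 1018 with cohorts as replicates and 654 without liver-marker arrays (2892), and related genes were 6 without cohort 2, 3 with cohorts as replicates and 2 without liver-marker arrays (12). For the difference between the muscles 1 member was higher with array weights (Utrn) and 1 without the diaphragm's liver-marker arrays (Dtna). All genes passing there were 531 without cohort 1, 705 without cohort 2, 2690 with array weights, 403 with cohorts as replicates, 690 without the diaphragm's and 451 without every liver-marker array (1468), and related genes passing were 8 without cohort 1, 8 without cohort 2, 5 with cohorts as replicates, 8 and 7 without those arrays and 9 at an adjusted p under 0.01 (14). Between the sham muscles 5556 and 5717 genes passed without the same arrays (9210). Leaving out every liver-marker array was chosen after seeing the data. Signs turned for values near 0: Sgca in the tibialis anterior was 0.0553 without cohort 1, 0.0116 with median centring, 0.0107 with array weights, 0.00113 with cohorts weighted by their arrays and 0.00027 without liver-marker arrays, and Dag1 was 0.0239 and Sgcb 0.0297 without cohort 3. Sgca in the diaphragm was 0.034 without cohort 2. In the difference between the muscles Sgca was 0.0373 without cohort 2, Sspn -0.11 without cohort 3, and Dag1 0.0595 and 0.0472 without the diaphragm's and every liver-marker array. Leaving out 1 array at a time gave Sgca -0.0235 to 0.0131 and Sgcb -0.0399 to 0.00311 in the tibialis anterior, Sspn -0.00114 to 0.12 in the difference, and 0 to 1 members higher in the diaphragm (without PDX array 3 of cohort 4). The cause of these changes was not tested. Sample numbers were not used to pair the samples, as the labels do not say that equal numbers are one mouse. Deviations from the group mean had a median r of 0.02 over 29 pairs of equal number in both muscles. Across different tissues such values cannot show whether equal numbers are one mouse. The fit with the replicate block changed no member call. It had 2237 genes passing in the tibialis anterior, 2747 in the diaphragm, 1329 in the difference and 8994 between the sham muscles.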

Other observations

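Patterns over the 16 group means, centred on each muscle, were also described for the members not treated above. Those most like Dag1 were Supt7l (r = 0.957), Fdx2 (r = 0.948) and Ap1ar (r = 0.944), and those most like Sgcb were Dusp27 (r = 0.932), Ciao1 (r = 0.929) and Sec61a2 (r = 0.918). Sgca was most like Kars (r = 0.907), Cox6a2 (r = 0.881) and Dhrs4 (r = 0.878), and Dtna was most like Shisa4 (r = 0.906), Pdlim3 (r = 0.89) and Ap1s2 (r = 0.88). These values describe 16 points that share cohorts and carry no test.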
